A study of Mus musculus with 6 samples.

Results

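The genes described are those that set how much pyruvate enters mitochondria and is burned there. They are the pyruvate dehydrogenase kinase genes Pdk1, Pdk2, Pdk3 and Pdk4, the pyruvate dehydrogenase phosphatase genes Pdp1 and Pdp2, the phosphatase regulatory subunit gene Pdpr, and the mitochondrial pyruvate carrier genes Mpc1 and Mpc2. Members were taken by gene symbol, 9 of the 23282 rows of each count table, and Pdk4 was put on the list because its level was lower with inotodiol in these same samples. Its values in that comparison are therefore a description and carry no test. The other 8 were listed for their function, with earlier results of these data known. All 9 passed the filter on low counts.

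RNA was sequenced from the gastrocnemius, the large calf muscle, of 6 male wild-type C57/BL6J mice aged 20 months. The 3 inotodiol mice were dosed by mouth every day for 10 weeks at 0.35 mg/kg; inotodiol is a lanostane triterpenoid of the chaga mushroom. The 3 control mice had a vehicle of 40% polyethylene glycol, 5% Tween 80 and 0.9% saline. The labels call the samples of a group biological replicates, and the series title names muscle wasting with age, mitochondria and signalling by liver X receptor beta.

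Pyruvate, the end product of glycolysis, crosses the inner mitochondrial membrane through a carrier built of the Mpc1 and Mpc2 proteins and is turned into acetyl-CoA by the pyruvate dehydrogenase complex. The kinases phosphorylate the alpha subunit of the complex and switch it off, and the phosphatases remove the phosphate and switch it on again. In skeletal muscle Pdk4 is the kinase gene best known for its response to fasting, fatty acids and glucocorticoids, and it is a textbook target of the PPAR and FoxO factors. Pdk2 is the kinase found most widely across tissues.

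Libraries held from 8961893 to 9953764 counts. The 10 skeletal muscle fibre genes used as a check (among them Acta1, Ckm and Ttn) together took from 178408 to 213233 CPM (counts relative to library size, scaled by the TMM method unless stated), and none was at 0. Libraries were about as alike between groups (Pearson r of log2 CPM over genes from 0.937 to 0.955 over 9 pairs) as within them (0.943 to 0.950 over 6 pairs). Of 11700 genes tested with edgeR's quasi-likelihood test none was called at an adjusted p under 0.05, which is 0% in either direction. The unadjusted p was under 0.05 for 570 of them, and DESeq2 called 1.

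Pdk4, the fasting-responsive kinase gene, stood at 132.8, 147.9 and 225.9 CPM in vehicle mice 1 to 3 and at 67.7, 111.4 and 81.1 CPM in inotodiol mice 1 to 3. All inotodiol values lay below all vehicle values, and the nearest pair was inotodiol mouse 2 and vehicle mouse 1. The underlying counts were 1261, 1370 and 2300 in vehicle and 624, 1004 and 791 in inotodiol libraries. The group means were 169 ± 49.95 CPM and 86.7 ± 22.4 CPM (SD, n = 3). The inotodiol mean was 0.514 of the vehicle mean, and the fitted log2 fold change was -0.96 ± 0.21 (SE). Pdk4 was chosen for this difference, so nothing is read from it. Vehicle mouse 3 was the highest library, and without it the log2 fold change was -0.69. The gene lies on chromosome 6 of GRCm38, 5483351 to 5496309, on the minus strand, and no exon of another gene in GENCODE M21 overlaps its protein-coding exons. The other kinase genes lie at chr2:71873224-71903858 (Pdk1), chr11:95026258-95041354 (Pdk2) and chrX:93764607-93832201 (Pdk3), the phosphatase genes at chr4:11958184-11966452 (Pdp1), chr8:104591451-104599026 (Pdp2) and chr8:111094630-111137074 (Pdpr), and the carrier genes at chr17:8282904-8297661 (Mpc1) and chr1:165460637-165481214 (Mpc2).

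**Figure D1:**
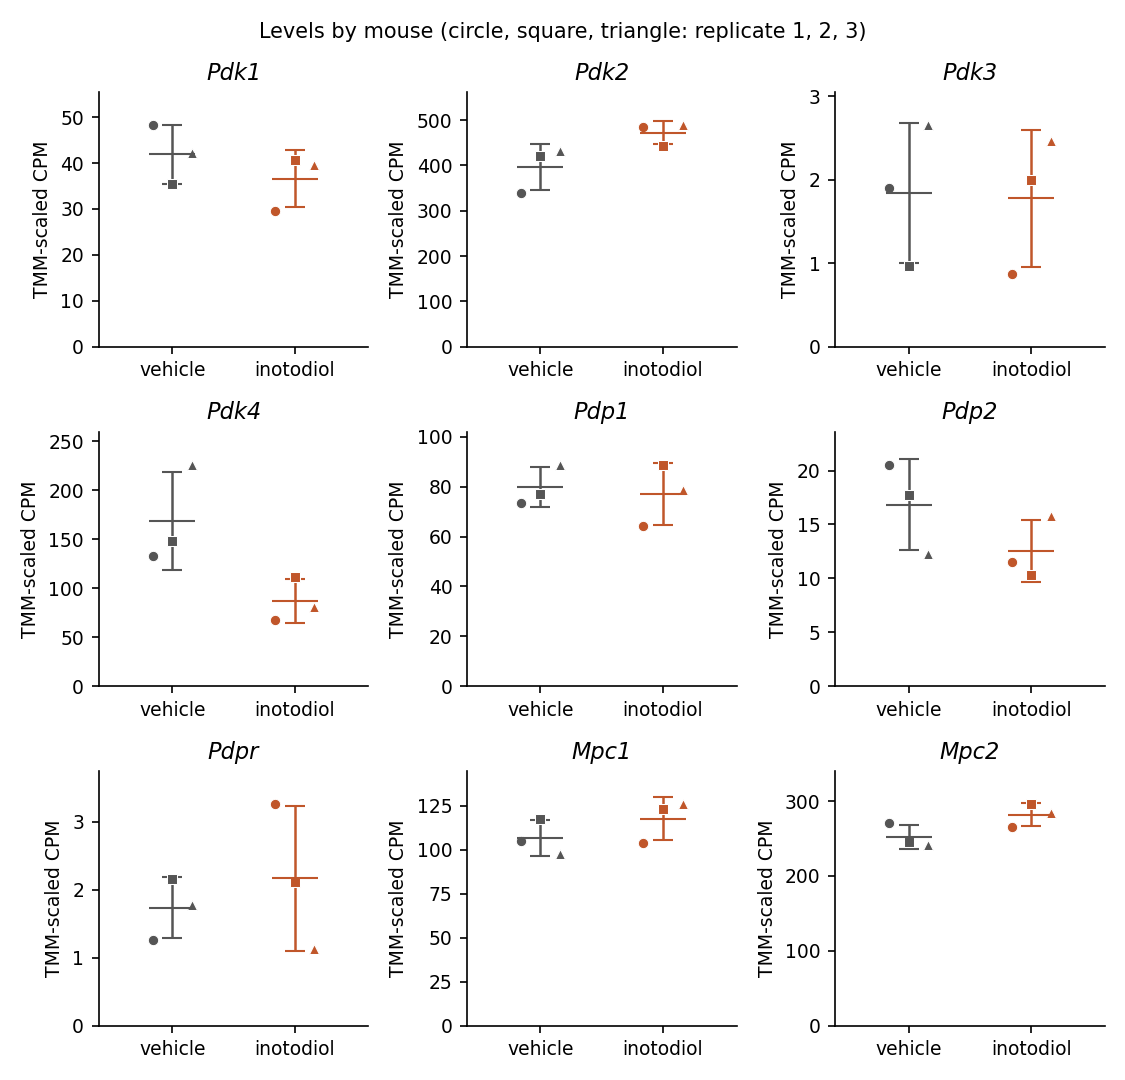
TMM-scaled CPM of the 9 genes in each mouse, with vehicle in grey and inotodiol in orange; circles, squares and triangles are replicates 1, 2 and 3, the long bar is the group mean and the whiskers are ± 1 SD (n = 3). Pdk4 is lower with inotodiol and was chosen for it, so it is not counted. Of the 8 other genes 1, Pdk2 (higher), has groups that do not overlap, against 10.4% of all genes tested. Without TMM scaling the groups of Pdk2 overlap.

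The 250 bases before the start of Pdk4 in RefSeq (build GRCm38.p6, chr6:5496279-5496528, minus strand) and the 250 before the start of Pdk2 (chr11:95041372-95041621, minus strand) are shown 5′ to 3′. These windows were picked by the contrast: Pdk4 was listed for its difference, and the groups of Pdk2 did not overlap. Groups did not overlap for 10.4% of all genes tested. Pdk2 did not pass edgeR's test (adjusted p 0.96), and its groups overlapped without TMM scaling. Nothing about its regulation or that of Pdk4 is read from the windows. Capitals mark CCAAT boxes (read as ATTGG on the other strand) in both, an AGTTCA site in Pdk4 and a CACGTG E-box in Pdk2.
Pdk4: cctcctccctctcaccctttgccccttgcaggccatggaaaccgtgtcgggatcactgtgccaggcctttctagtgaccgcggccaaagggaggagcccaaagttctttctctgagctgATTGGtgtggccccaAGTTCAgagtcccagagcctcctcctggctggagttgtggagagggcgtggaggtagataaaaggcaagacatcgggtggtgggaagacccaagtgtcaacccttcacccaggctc
Pdk2: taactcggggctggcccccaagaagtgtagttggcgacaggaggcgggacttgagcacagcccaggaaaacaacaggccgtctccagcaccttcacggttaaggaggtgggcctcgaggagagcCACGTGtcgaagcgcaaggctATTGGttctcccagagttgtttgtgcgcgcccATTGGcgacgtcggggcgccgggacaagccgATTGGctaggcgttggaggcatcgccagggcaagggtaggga

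Motifs were searched on both strands in the RefSeq windows of 300 bases, from 250 before to 50 after the start, for the 8 of 9 members with a window (Pdp1 had none) and for 17217 genes of the table. AGTTCA and CCAAT were added to the search after the Pdk4 window had been read, so their presence in that window is no result. AGTTCA, a form of the hexamer that nuclear receptors bind, was found in the window of Pdk4 alone among the members, 116 bases before the start, and in 12.7% of all windows. The Pdk4 window also held CCAAT, as did those of Pdk2, Pdk3, Pdp2, Mpc1 and Mpc2 and 38.8% of all windows. CACGTG was in the windows of Pdk2, Pdp2 and Pdpr, 3 of 8, and in 8.17% of all. GGGCGG, the GC box, was in 6 of 8 member windows and in 46.8% of all, and neither Pdk4 nor Pdk2 held it. ACGTG, the core of the HIF element, which lies within CACGTG in Pdk2, Pdp2 and Pdpr, was also found in Pdk3 and in 21.2% of all windows.

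The FoxO core GTAAACA (3.01% of all windows), the nuclear receptor hexamer AGGTCA (14.4%), the longer ERR site TCAAGGTCA (0.331%) and TATAAA (12.8%) were in none of the 8. The same held for the PPAR element DR1 (AGGTCA repeated after 1 base, 0.0639% of all windows), the liver X receptor element DR4 (AGGTCA repeated after 4 bases, 0.00581%) and the glucocorticoid element (0.482%). These searches say only which letters stand in these windows.

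Pdk2, the widely expressed kinase gene, differed in the opposite direction. It had 338.6, 419.8 and 431.8 CPM in vehicle mice 1 to 3 and 485.6, 442.6 and 488.8 CPM in inotodiol mice 1 to 3. Every inotodiol value was above every vehicle value, with inotodiol mouse 2 close to vehicle mouse 3. The means were 397 ± 50.7 and 472 ± 25.8 CPM (SD, n = 3). On the log2 scale the difference was 0.25 ± 0.13 (SE), and the gene did not pass edgeR's test over all genes (adjusted p 0.96). The 95% interval ran from 0.98-fold to 1.44-fold. Without vehicle mouse 1, the lowest library, the log2 fold change was 0.15. Without TMM scaling, relative to library totals alone, the groups overlapped: vehicle libraries ranged from 359 to 458 unscaled CPM and inotodiol libraries from 411 to 500.04, and the log2 fold change was 0.14. That scaling moved the median of all genes from -0.00073 to -0.12, and relative to this median Pdk2 stood at 0.26 and Pdk4 at -0.97.

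Non-overlapping groups were the case for 5.15% of all genes tested on the higher side and for 5.26% on the lower side. Among the 9 members 1 gene was apart on each side, Pdk2 and Pdk4, and since Pdk4 was chosen by this contrast nothing is read from its count.

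The other kinase genes had overlapping groups. Pdk1, a kinase gene known as a target of the hypoxia factor HIF, had 48.2, 35.4 and 42.1 CPM in vehicle and 29.5, 40.7 and 39.6 CPM in inotodiol mice 1 to 3. The groups overlapped, with inotodiol mouse 1 the lowest library, and the log2 fold change was -0.20 ± 0.19 (SE, edgeR adjusted p 0.97, 95% interval from 0.66-fold to 1.16-fold). Pdk3 was barely detected, at 18, 9 and 27 counts in vehicle and 8, 18 and 24 counts in inotodiol libraries. Its 95% interval ran from 0.34-fold to 2.72-fold, so these data allow differences of over 2-fold in either direction. Pdk1 is a separate row from Pdpk1, the phosphoinositide-dependent kinase for which RefSeq lists Pdk1 as a synonym.

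The make-up of the kinase counts is given next as a description with no test: every share and ratio of these 4 genes holds the Pdk4 difference by which that gene was chosen. Pdk4 made up 25.5%, 24.5% and 32.2% of the counts of the 4 kinase genes in vehicle mice 1 to 3. In inotodiol mice 1 to 3 it made up 11.6%, 18.7% and 13.2%, so no inotodiol share reached the lowest vehicle share. The exact 95% binomial intervals, which cover counting error only, were 23.4% to 25.6% for the lowest vehicle library and 17.6% to 19.7% for the highest inotodiol library. The mean share was 27.4 ± 4.17% in vehicle and 14.5 ± 3.70% in inotodiol mice (SD, n = 3). The share of Pdk2 was 65.3 ± 4.02% and 79.1 ± 4.56%, that of Pdk1 was 7.04 ± 1.92% and 6.12 ± 0.93%, and that of Pdk3 was 0.30 ± 0.12% and 0.30 ± 0.13%. Summed over the 4 genes the level was 609 ± 90.6 CPM in vehicle and 597 ± 14.1 CPM in inotodiol mice. Vehicle mouse 1 had the lowest sum at 521.6 CPM and vehicle mouse 3 the highest at 702.5 CPM, so the inotodiol sums of 583.7, 596.7 and 611.9 CPM lay inside the vehicle range. There were 2.43 ± 0.47 Pdk2 counts for each Pdk4 count in vehicle and 5.72 ± 1.62 in inotodiol libraries.

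**Figure D2:**
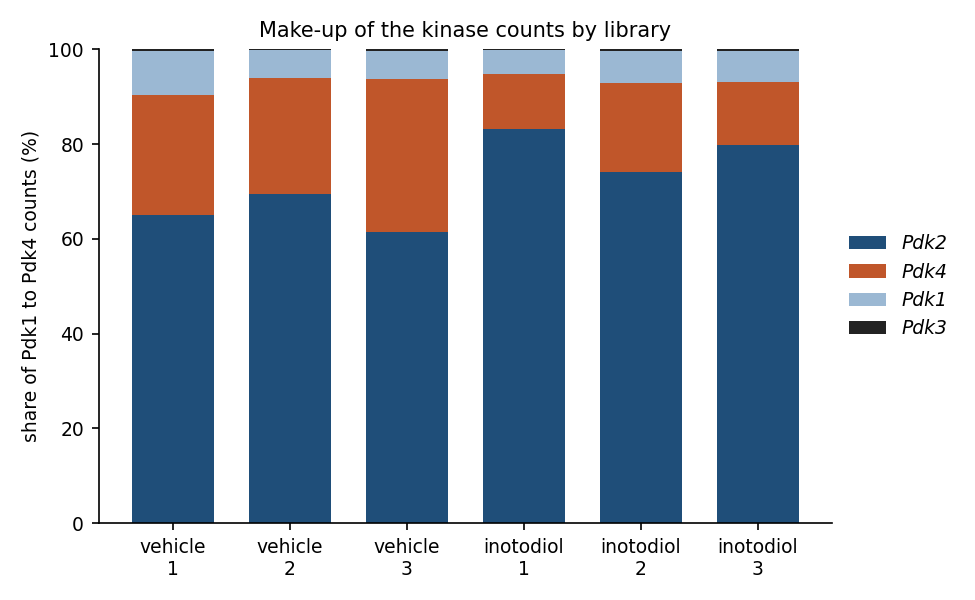
Share of each gene in the summed counts of Pdk1 to Pdk4 (percent, vertical axis) in each of the 6 libraries, not corrected for transcript length. Pdk4 takes 24.5% to 32.2% in the vehicle libraries and 11.6% to 18.7% in the inotodiol libraries, and Pdk2 takes the largest share in all 6.

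The phosphatase genes, whose products reactivate the complex, had overlapping groups throughout. Pdp1, the calcium-stimulated phosphatase of muscle, had 73.5, 76.9 and 88.8 CPM in vehicle and 64.0, 88.5 and 78.5 CPM in inotodiol mice 1 to 3, with overlapping groups. Its log2 fold change was -0.05 ± 0.16 (SE, edgeR adjusted p 0.998, 95% interval from 0.76-fold to 1.23-fold). Pdp2, the insulin-responsive phosphatase, had 20.5, 17.7 and 12.3 CPM in vehicle and 11.5, 10.3 and 15.8 CPM in inotodiol mice 1 to 3. Vehicle mouse 3 lay among the inotodiol values, so the groups overlapped, and the log2 fold change was -0.42 ± 0.27 (SE, edgeR adjusted p 0.96). The interval from 0.50-fold to 1.11-fold is wide for this gene. Pdpr, which encodes the regulatory subunit that restrains Pdp1, had 12, 20 and 18 counts in vehicle and 30, 19 and 11 counts in inotodiol libraries, with the highest and the lowest library both in the inotodiol group. Its 95% interval ran from 0.47-fold to 3.32-fold. Some reads of Pdpr could belong to 9430091E24Rik, on the opposite strand, whose exons share 90 bases with it, since the strand setting of the counting is not given in the sources used here; that gene had from 0 to 12 counts per library.

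Pdp1 counts outnumbered Pdp2 counts 5.05 ± 1.93 to 1 in vehicle and 6.37 ± 1.93 to 1 in inotodiol libraries (SD, n = 3, not corrected for transcript length). The ratio of all kinase counts to the counts of Pdp1 and Pdp2 was 5.55, 6.39 and 6.95 for vehicle mice 1 to 3 and 7.73, 6.04 and 6.49 for inotodiol mice 1 to 3. These values overlapped, with both the lowest and the second highest in vehicle.

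Neither carrier gene passed the test. Mpc2 had 270.9, 245.3 and 240.8 CPM in vehicle and 265.4, 295.9 and 284.8 CPM in inotodiol mice 1 to 3; vehicle mouse 1 lay above inotodiol mouse 1. The log2 fold change was 0.16 ± 0.12 (SE, edgeR adjusted p 0.96, 95% interval from 0.93-fold to 1.34-fold). Mpc1 had 104.7, 117.7 and 97.4 CPM in vehicle and 103.6, 123.4 and 125.8 CPM in inotodiol mice 1 to 3, also with overlap. Its log2 fold change was 0.14 ± 0.14 (SE, edgeR adjusted p 0.97, 95% interval from 0.89-fold to 1.37-fold). The carrier works as a complex of both proteins, and the ratio of Mpc2 to Mpc1 counts was 2.38 ± 0.26 in vehicle and 2.41 ± 0.15 in inotodiol libraries. Exons of the antisense gene 4930506C21Rik share 344 bases with Mpc1, but it had only 3 to 20 counts per library against 955 to 1228 for Mpc1.

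Among the 8 members other than Pdk4, edgeR called 0, and 0 had an unadjusted p under 0.05; DESeq2 and limma-voom also called 0. Their adjusted p ranged from 0.96 to 0.998. Of these 8 log2 fold changes 4 were above 0 and the median was 0.05, beside 49.9% above 0 and a median of -0.00073 over all genes tested. The intervals show how large a difference these data allow: they stayed within 1.44-fold higher and 0.76-fold for Pdk2, Mpc1, Mpc2 and Pdp1, and reached beyond 2-fold for Pdk3 and Pdpr.

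**Figure D3:**
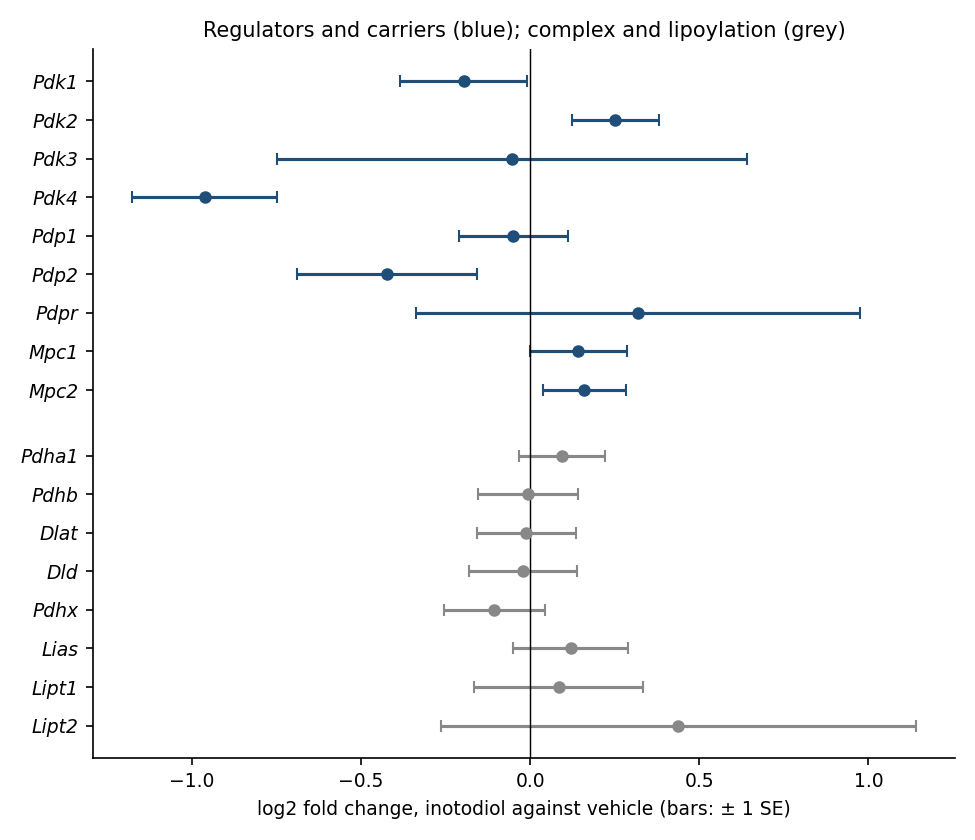
Log2 fold change of inotodiol against vehicle (horizontal axis; bars are ± 1 SE) for the 9 regulator and carrier genes in blue and the 8 genes of the complex and its lipoylation in grey. Pdk4, drawn at -0.96, was chosen for this difference and is not to be compared with the others; the other 16 genes range from -0.42 to 0.44, and the bars of Pdk3, Pdpr and Lipt2 are the widest.

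Levels of different genes were set side by side per kilobase of exon in GENCODE M21. This assumes that counts rise with transcript length, which is not settled for these libraries, made with a Lexogen Quant-Seq kit. In vehicle mice the order of mean CPM per kilobase was Mpc2 (246 ± 15.8), Pdk2 (177 ± 22.6), Mpc1 (72.5 ± 6.98), Pdk4 (48.5 ± 14.3), Pdp1 (17.7 ± 1.78), Pdk1 (8.09 ± 1.24), Pdp2 (2.96 ± 0.74), Pdk3 (0.87 ± 0.40) and Pdpr (0.35 ± 0.09; SD, n = 3 for each). No neighbours in that order overlapped in vehicle mice. In inotodiol mice the order of the means was the same, but the range of Pdk4, 19.4 to 32.0, overlapped that of Pdp1, 14.2 to 19.6 CPM per kilobase, and the ranges of Pdk3 and Pdpr overlapped too. Counted per kilobase, Pdk4 made up 17.9% to 24.3% of the kinase level in vehicle and 8.04% to 13.4% in inotodiol libraries.

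The spread between mice of the same group, which does not use the contrast, was wide for Pdk4 at its level. Its SD of log2 CPM within groups was 0.38, and of the 200 genes nearest to it in level 94.5% had a smaller one; the median of those neighbours was 0.17. Counting error is a small part of this, since the within-group coefficient of variation was 27.8% and counting alone gives 3.11%. Mpc2 was at the other end, with an SD of 0.086 that was larger than that of only 12% of its 200 neighbours. Pdk2 (0.15), Pdk1 (0.24), Pdp1 (0.19) and Mpc1 (0.15) had a larger SD than 38.5% to 57% of their neighbours, and Pdp2 (0.35) than 66.5%. For Pdk3 and Pdpr counting error was large, 26.6% and 24.7%, against within-group coefficients of variation of 45.9% and 39.3%.

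**Figure D4:**
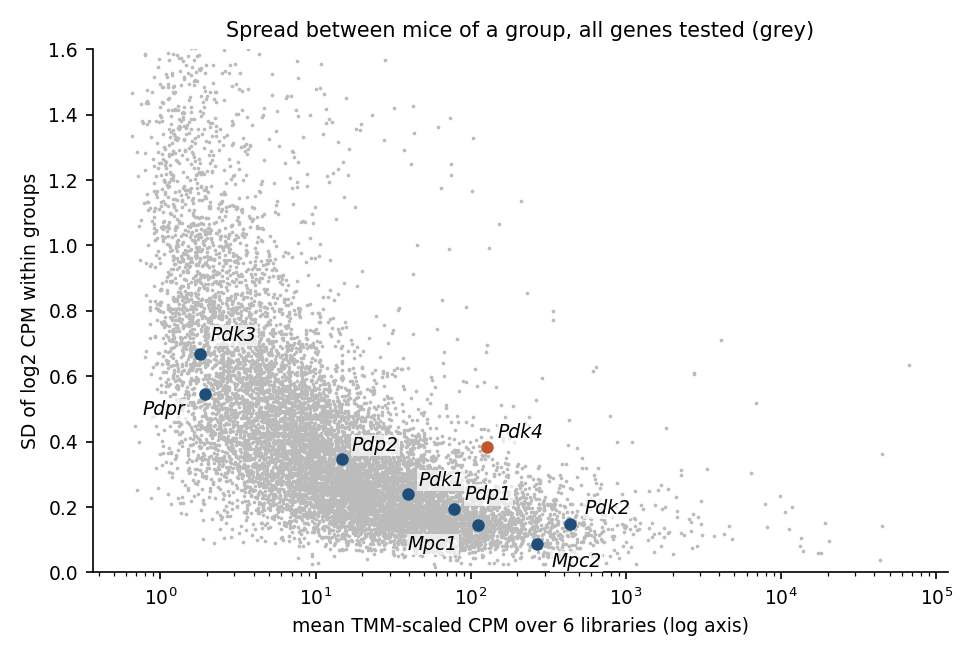
SD of log2 CPM between mice within groups (vertical axis) against mean CPM over the 6 libraries (horizontal log axis) for all 11700 genes tested in grey; 81 genes above the upper limit of 1.6 are not drawn. Pdk4 (orange) at 0.38 lies above most genes of its level, and Mpc2 at 0.086 lies near the lower edge.

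The genes of the complex that these regulators act on differed little between the groups. Pdha1, the alpha subunit that the kinases phosphorylate, had 264.6, 222.7 and 218 CPM in vehicle and 237.2, 256.4 and 259.2 CPM in inotodiol mice 1 to 3, with overlap and a log2 fold change of 0.09 ± 0.13 (SE). Pdhb, the beta subunit, stood at -0.01 ± 0.15 and Dlat, the acetyltransferase core, at -0.01 ± 0.15 on the same scale. Dld, the dihydrolipoamide dehydrogenase shared with other complexes, stood at -0.02 ± 0.16, and Pdhx, the protein that binds it to the core, at -0.11 ± 0.15. Of the genes that make and attach the lipoyl cofactor, Lias had a log2 fold change of 0.12 ± 0.17, Lipt1 of 0.08 ± 0.25 and Lipt2, at 1.38 ± 0.38 and 1.87 ± 0.97 CPM, of 0.44 ± 0.70. All 8 had overlapping groups, 4 lay above 0, the median was 0.04 and edgeR called 0.

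Genes that make, export or exchange pyruvate were 16 tested of 18 listed, with 11 above 0 and a median of 0.04. Pkm, the pyruvate kinase of muscle, had a log2 fold change of 0.11 ± 0.12 (SE), Ldha, the muscle lactate dehydrogenase subunit, of 0.10 ± 0.12 and Vdac1, the outer membrane channel, of 0.07 ± 0.12. Slc16a3, the lactate exporter of glycolytic fibres, was named after its values were seen, as the 1 gene of the list with an unadjusted p under 0.05. It had 278.9, 370.4 and 376.3 CPM in vehicle and 388.4, 398.6 and 552.7 CPM in inotodiol mice 1 to 3, a log2 fold change of 0.39 ± 0.16 (SE) that did not pass over all genes (edgeR adjusted p 0.96).

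Of 19 factors known to bind or drive Pdk genes 18 were tested, 10 lay above 0 and the median was 0.08. Foxo1, the FoxO factor of fasting muscle, had 172, 241 and 267 CPM in vehicle and 239, 217 and 305 CPM in inotodiol mice 1 to 3, a log2 fold change of 0.16 ± 0.17 (SE). Stat5b stood at -0.13 ± 0.12 and the coactivator gene Ppargc1a at -0.09 ± 0.29. Nr1h2, which encodes the receptor in the series title, was at 34.4 ± 6.28 CPM in vehicle and 36.4 ± 1.06 CPM in inotodiol mice. None of these was called.

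Of the genes that answer fatty acids in muscle 20 were tested, 9 lay above 0 and the median was -0.01. Lpl, the lipoprotein lipase, had a log2 fold change of -0.03 ± 0.13 (SE), Fabp3, the muscle fatty acid binding protein, of -0.09 ± 0.15 and Hadha, an enzyme of beta-oxidation, of 0.06 ± 0.13. Of the genes of the glucocorticoid response and of insulin withdrawal 8 of 16 lay above 0 and the median was 0.03. Trim63 and Fbxo32, the muscle ubiquitin ligases, stood at -0.02 ± 0.16 and -0.20 ± 0.21, and the glucocorticoid-induced Tsc22d3 at 0.26 ± 0.15. Pik3r1, a subunit of the insulin-activated kinase, had an unadjusted p under 0.05 and was likewise named after its values were seen, with 58.8 ± 0.95 CPM in vehicle and 75.5 ± 12.2 CPM in inotodiol mice.

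Over the 5 lists together 78 of 81 genes were tested and edgeR and DESeq2 called 0, with 3 at an unadjusted p under 0.05, all higher. The groups were apart for 6 of the 78 (4 higher, 2 lower), or 7.69%, against 10.4% of all genes tested.

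The genes whose pattern over the 6 libraries was nearest to that of Pdk4 were Tmem86a, Pcsk7, Socs3, Sep15, Plod3 and Ctgf. Nearness was the root mean square difference of log2 CPM after each gene was centred on its mean, over the 8159 genes that averaged 5 CPM or more and have a descriptive symbol (no Gm, Rik or similar names), whose median difference from Pdk4 was 0.62. Tmem86a, a lysoplasmalogenase gene, was nearest at 0.10, with 6.42, 6.37 and 9.53 CPM in vehicle and 3.36, 4.88 and 3.48 CPM in inotodiol mice 1 to 3. Pcsk7, a proprotein convertase gene, differed by 0.14, and Socs3, a feedback inhibitor of cytokine signalling, by 0.18. Sep15 (0.19) encodes a selenoprotein, Plod3 (0.20) a lysyl hydroxylase of collagen and Ctgf (0.21) a matrix-associated growth factor. A gene near Pdk4 by this measure has to be lower in the inotodiol libraries, so their log2 fold changes, from -0.93 for Tmem86a to -0.75 for Plod3, add nothing. Among the members Pdp1 (0.48) and Pdk1 (0.48) were nearest to Pdk4, with 10.6% and 11.3% of the 8159 genes nearer, and Pdpr (0.81) was the farthest.

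**Figure D5:**
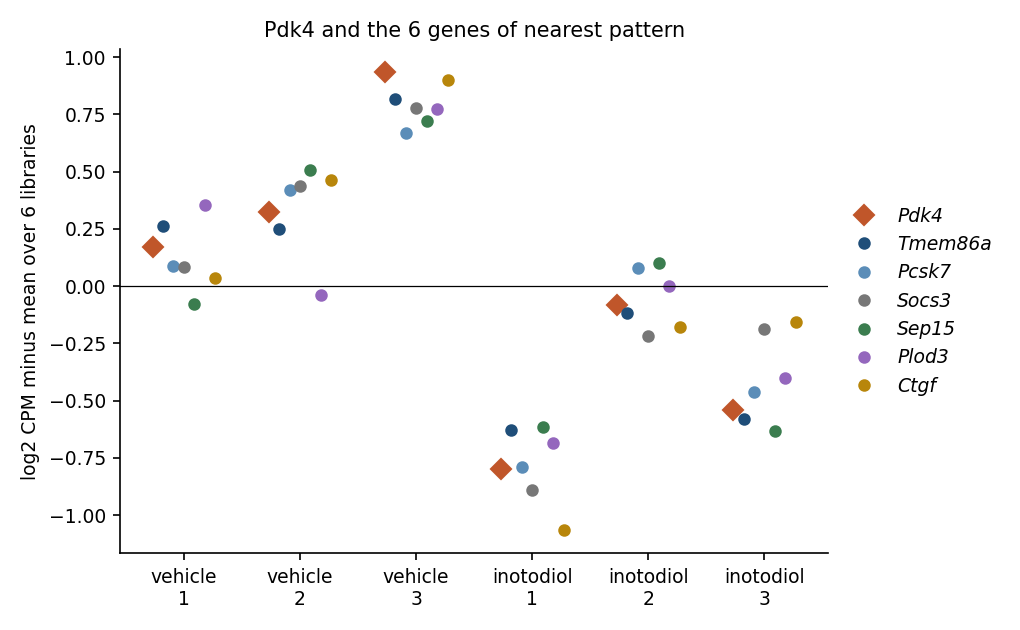
Log2 CPM minus the gene's own mean over the 6 libraries (vertical axis) in each library, for Pdk4 (orange diamonds) and the 6 genes of nearest pattern (circles, shifted sideways for clarity). All 7 genes are highest in vehicle 3, and Pdk4 lies at 0.93 there and at -0.80 in inotodiol 1.

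Several other measures differed between the same libraries. The summed level of the 16 hepatocyte markers was 51.5, 122 and 85.8 CPM in vehicle mice 1 to 3. In inotodiol mice 1 to 3 it was 834, 337 and 146 CPM. Inotodiol mouse 1 was highest for them and lowest for Pdk4. Inotodiol mouse 3, next lowest for Pdk4 at 81.1 CPM, had the lowest inotodiol sum of these markers. All 16 of these markers had log2 fold changes above 0. Rn45s, the 45S ribosomal precursor, held 3.97%, 6.82% and 4.38% of all counts for vehicle mice 1 to 3 and 10.2%, 9.56% and 4.33% for inotodiol mice 1 to 3. Without Rn45s and the hepatocyte genes the log2 fold change of Pdk4 was -0.96 and that of Pdk2 was 0.25. Leaving out these rows changes only the scaling and keeps the counts of Pdk4 and Pdk2 as they are. It therefore cannot show whether these library differences bear on either gene. In vehicle mouse 3, the highest for Pdk4, the 8 macrophage markers summed to 240 CPM and the 6 fibroblast markers to 1525 CPM. The other libraries had from 62.4 to 180 and from 878 to 1088 CPM of these. The macrophage sum of 180 CPM was that of inotodiol mouse 1, the lowest for Pdk4. In log2 fold change 3 of 8 macrophage and 0 of 6 fibroblast markers lay above 0. The 9 slow fibre genes summed to 2240 to 3157 CPM in vehicle and 2563 to 3089 CPM in inotodiol mice, with vehicle mouse 3 the lowest. The 7 adipocyte genes ranged from 136 to 273 and from 127 to 243 CPM, and the 6 endothelial genes from 86.4 to 115 and from 97.3 to 104 CPM. The 5 Schwann cell genes, all above 0, did not overlap between groups, at 68.1 to 87.4 CPM in vehicle and 95.6 to 183 CPM in inotodiol mice, and the 5 erythroid genes ranged from 5289 to 7517 and from 4276 to 15052 CPM. The part of these in the level of Pdk4 was not tested, and in whole muscle fewer cells of a type and less RNA per cell cannot be told apart.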

How the data were processed

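Gastrocnemius RNA of 3 vehicle and 3 inotodiol mice was analysed as deposited, in whole-number read counts per gene symbol, 23282 rows per table. Per the labels, a Lexogen Quant-Seq kit was used on total RNA. Per the submitters' processing notes, Bowtie2, bedtools and mm10 were used; their versions, the annotation and the strand setting: not given in the sources used here. Samples were grouped by their titles.

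Genes were kept with filterByExpr (minimum count 10, minimum total 15), given TMM factors, and compared by the two-sided quasi-likelihood test of edgeR 4.0.16 in R 4.3.3, group as the only term, Benjamini-Hochberg over 11700 genes at 0.05. P-values rest on the spread among 3 mice per group, with each gene's spread drawn by the fit towards that of the other genes. The model was also run on counts simulated from its own fitted spread. Its power for differences of the size seen in the members is not reported here. Log2 CPM used a prior count of 2. Alternatives were other scalings and filters, DESeq2 1.42.0, limma-voom (limma 3.58.1), the replicate number as a block, and each library left out; a run without Rn45s and the hepatocyte genes was added after the data were seen.

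The members and gene lists were chosen with earlier results of these data known. Named were all members, all genes of the complex and lipoylation list, the 3 most abundant tested genes of each other pathway list, and the 6 genes nearest to Pdk4; Slc16a3, Pik3r1 and Nr1h2 were named beside this rule. The values of 1 gene of the lists are not reported here. AGTTCA and CCAAT were added to the motifs after the Pdk4 window had been read. Where RefSeq gave several windows, the first listed was used. Exon lengths are unions of the protein-coding transcripts of the GENCODE M21 basic set.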

Additional observations from a re-analysis of the deposited data

How the results depend on the processing

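The count of genes called by edgeR was 0 in the analysis reported, 95 with no filter on low counts and 1 with DESeq2. Leaving out 1 library at a time gave 0 to 25 calls, the 25 without inotodiol replicate 3 (the cause was not tested). Among the 8 members other than Pdk4 and among the pathway genes it was 0 in all 15 alternatives. Pdk3 was tested in 14 of these, since it failed the filter of 1 CPM in all 6 samples. The log2 fold change of Pdk4 ranged from -1.18 (without inotodiol replicate 2) to -0.69 (without vehicle replicate 3), and the difference in its share of the kinase counts from -14.9 to -10.5 percentage points with single libraries left out and was -10.2 per kilobase. Pdk1, Pdk2, Pdp2, Mpc1 and Mpc2 kept their sign in all 15, but single libraries moved them: Pdk1 ranged from -0.30 to -0.06 (the latter without inotodiol replicate 1; -0.08 without vehicle replicate 1), Pdk2 from 0.15 (without vehicle replicate 1) to 0.32, Pdp2 from -0.63 to -0.26 (without vehicle replicate 1), Mpc1 from 0.08 (without vehicle replicate 3) to 0.23 (without inotodiol replicate 1) and Mpc2 from 0.13 to 0.21. Library totals alone gave 0.14 for Pdk2, 0.03 for Mpc1 and 0.04 for Mpc2. With single libraries left out Pdk3 ranged from -0.36 to 0.31, Pdp1 from -0.16 to 0.068 and Pdpr from -0.098 to 0.63, so their signs turned: for Pdk3 and Pdp1 without vehicle replicate 3 (0.31 and 0.035) and without inotodiol replicate 1 (0.27 and 0.068), and for Pdpr without inotodiol replicate 1 (-0.098). With the replicate number as a block the count of genes called was 0, and Pdk4 stood at -0.95 and Pdk2 at 0.26. The numbers were not taken to pair the mice, because the labels state no link between same-numbered mice. Deviations from the group means were correlated over genes at -0.08, 0.11 and 0.02 for same-numbered mice. For differently numbered mice the range was -0.13 to 0.10. These correlations do not settle whether the mice were paired. With library totals alone the medians of the complex, pyruvate, factor and glucocorticoid lists were below 0 (-0.08, -0.07, -0.05 and -0.09) and that of the fatty acid list was -0.12, as was the median of all genes. With single libraries left out the medians ranged from -0.03 to 0.12 for the complex list, from 0.01 to 0.09 for the pyruvate list, from 0.03 to 0.15 for the factor list, from -0.10 to 0.06 for the fatty acid list and from -0.11 to 0.23 for the glucocorticoid list. Depth limits Pdk3 and Pdpr, at 8 to 30 counts per library.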
